A study of Mus musculus with 9 samples.

Results

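The sites described here are the G1297-only EWS/ATF1 sites that lie beside a MEF site. They are peaks called in the mouse clear cell sarcoma line G1297 that overlapped no peak of sarcoma-iPSC mouse embryonic fibroblasts (MEFs) but lay within 5 kb of one, measured from edge to edge on the same chromosome. Of 8090 G1297 peaks, 3006 (37.2%) overlapped no MEF peak, and 667 of these (22.2%), or 8.24% of all G1297 peaks, met this rule. These 667 peaks are referred to as adjacent sites. The other 2339 G1297-only peaks, which had no MEF peak within 5 kb, are referred to as remote sites. The adjacent sites were chosen by the measured peak positions in both cell types, so that their lack of overlap and their closeness to a MEF peak are the definition and not a result.

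EWS/ATF1 was recovered by ChIP-Seq with an antibody against hemagglutinin (HA) 12 h after Dox at 0.2 µg/ml. G1297 is a cell line from an EWS/ATF1-induced sarcoma and carries Dox-controllable EWS/ATF1 alleles, and 2 ChIP libraries with 2 numbered input libraries are described for it. The sarcoma-iPSC MEFs were derived from iPSC clone #3, which had been reprogrammed from G1297, and 1 ChIP and 1 input library are described for them. According to the paper, these MEFs were taken from chimeric embryos and selected with puromycin. Both cell types therefore carry the same inducible alleles, and each stands for a single line or clone. The paper describes genetic abnormalities that they share, with a part of the chromosomal ones found in the MEFs. Whether copy number at the sites is the same in both is not known here. The values are the position and score of each peak in 1 list per cell type, with no values per library and no read counts. No difference could be set against a spread between replicates, no test was made, and peaks are not replicates of a cell type. How deeply the libraries were sequenced is unknown. The MEF list held 27130 peaks. Absence from the MEF list thus means that no region there passed the threshold in that library.

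EWS/ATF1 joins the amino-terminal part of EWS, which activates transcription, to the DNA-binding domain of ATF1, a bZIP factor that recognises the cyclic AMP response element (CRE). It is the fusion protein of clear cell sarcoma, a soft tissue tumour with melanocytic features. Transcription factors often occupy several elements of a single regulatory region, and which of these are open to them differs from cell type to cell type. A ChIP-Seq peak marks a region where reads pile up above the background, so that close peaks may mark separate elements or parts of a broad one. The score of a peak is -10 times the log10 of its P value from MACS, and the threshold of 1e-09 corresponds to a score of 90. Scores were compared only within a cell type. Between cell types, the percentile of a score within its own list was used. Coordinates are those of mm9, counted from 1. Genes, promoters and sequence at these sites were not analysed here.

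The highest score among the adjacent sites, 3100, was found at 5 of them. It is a value that 209 G1297 peaks had in common and that does not rank them, so these 5 were ordered by width and no ratio is given for them. The widest, of 3081 bp, lay at chr16:90757778-90760858. A MEF peak with a score of 1372.14 began 4.114 kb further along the chromosome. That MEF peak overlapped another G1297 peak, whose score was only 204.15. The sarcoma cells thus had their strong peak in the interval without a MEF call and a weaker one at the shared position. Farther out, in the same direction, a further shared site had a score of 3100 in both lists.

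The same order was found at other high-scoring sites. They were picked by their adjacent score, and this choice favours that order, which held at only 85 of all 381 sites beside a shared site. At chr4:59344273-59347184 the score was again 3100, and the shared site 1.216 kb away had scores of 436.54 in G1297 and 579.27 in the MEFs. At chr19:21887045-21889578, with a score of 3100, the shared site at 4.331 kb had 224.34 in G1297 and 336.68 in the MEFs. At chr11:66829662-66830774, with a score of 2282.42, the corresponding values were 178.19 and 138.32 at 3.067 kb. At this last site the adjacent score was 12.8 times that of the G1297 peak at the shared site. A further peak at chr6:140498918-140501033 reached 3100, and the shared site 3.277 kb away had 749.51 in G1297 and 218.38 in the MEFs.

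The remaining high-ranking sites had other surroundings. Both G1297 peaks were strong at chr6:142937400-142938787, where the adjacent site and the peak at the shared site each had a score of 3100, and the MEF peak had 2630.42. Both were again close in score at chr11:116046533-116047687, with 2498.7 at the adjacent site and 2388.03 at the shared site 2.325 kb away, whereas the MEF peak there had only 140.18. Another 3 sites lay beside a MEF peak that overlapped no G1297 peak. One of them, at chr11:114279074-114280646 with a score of 3046.61, stood alone in G1297, with the next G1297 peak 253761 bp away, and its MEF neighbour at 4.581 kb had a score of 616.09. The peak at chr6:140910142-140912375, with a score of 2041.64, was likewise 66526 bp from the next G1297 peak and 4.28 kb from a MEF peak with 380.3. The peak at chr6:114840072-114841532, with a score of 2338.84, lay 0.317 kb from a MEF-only peak with 457.81 and had a shared site on its other side. Of these 10 sites, 7 had a shared site as their nearest MEF neighbour and 3 a MEF-only peak, and 4 lay on chromosome 6 and 3 on chromosome 11. These 2 chromosomes held 72 and 37 of all 667 adjacent sites and 629 and 434 of all 8090 G1297 peaks.

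**Figure D1:**
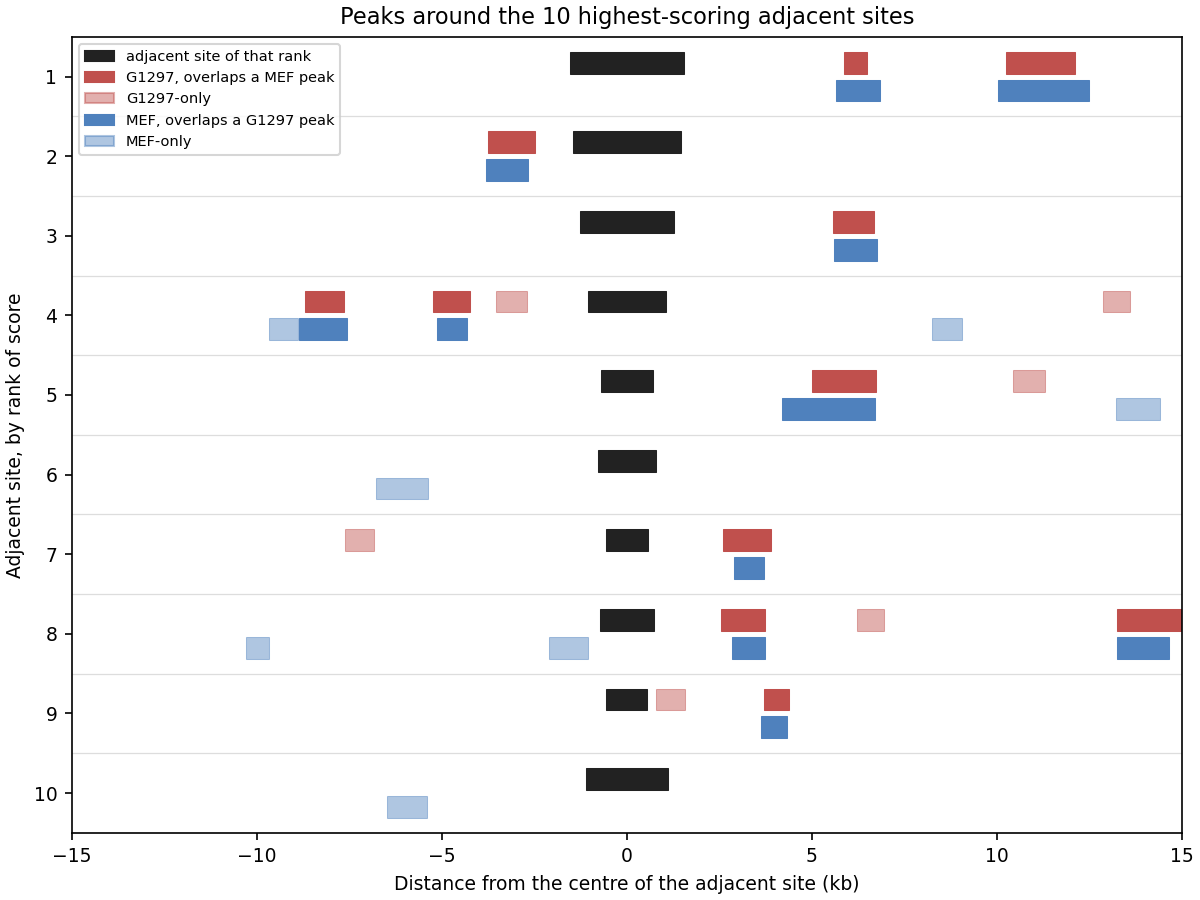
Peaks called within 15 kb of the centre of each of the 10 highest-scoring adjacent sites, with distance in kb on the horizontal axis and 1 row per site. In each row the upper boxes are G1297 peaks and the lower boxes MEF peaks, drawn to scale in width, with full colour where a peak overlaps a peak of the other list. The nearest MEF peak coincided with a G1297 peak in 7 of the 10 rows, and rows 6 and 10 held no G1297 peak other than the adjacent site.

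Most adjacent sites were far weaker than these. Their scores ran from 90.04 to 3100 with a median of 187.57, and the middle of the distribution lay between 122.225 and 363.05 (first and last quartile). The remote sites had nearly the same values, with a median of 189.8 and quartiles of 122.685 and 374.04. G1297 peaks that overlapped a MEF peak had a median of 344.24. A score of at least 500 was reached by 30.9% of all G1297 peaks, by 38.6% of those overlapping a MEF peak, by 18.4% of the remote sites and by 105 adjacent sites (15.7%, exact 95% binomial interval 13.1% to 18.7%). This and the other intervals cover counting error only. Adjacent and remote sites differed mainly at the upper end, where the 90th percentile was 684.85 for the adjacent and 862.83 for the remote sites. When the 3006 G1297-only peaks were divided into 10 equal groups by score, 17.3% of the highest group were adjacent sites, against 60 of 300 peaks to 74 of 300 peaks (24.7%) in the other 9. Only 21 adjacent sites (3.15%) ranked in the highest 10% of the G1297 list, and 233 (34.9%) ranked in its lowest 25%. The median width was 742 bp for adjacent sites, 747 bp for remote sites and 876 bp for G1297 peaks that overlapped a MEF peak. In score and width, the adjacent sites thus lay close to the remaining G1297-only peaks and below the shared ones.

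**Figure D2:**
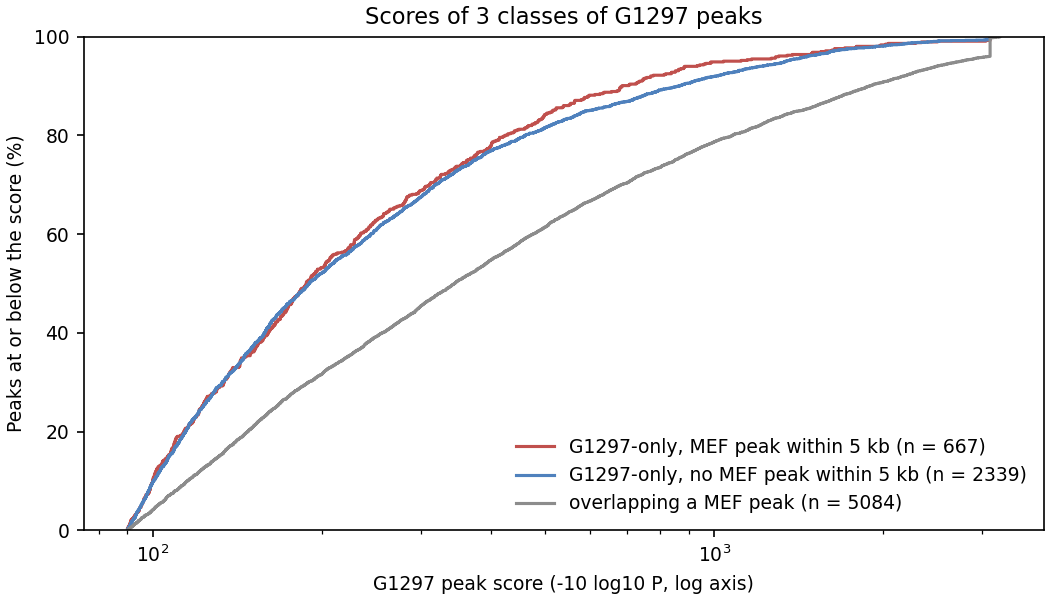
Cumulative percentage of G1297 peaks (vertical axis) at or below each score (horizontal axis, log scale), for 667 adjacent sites, 2339 remote sites and 5084 peaks that overlapped a MEF peak. The curves of adjacent and remote sites run together up to a score of about 500 and the curve of the overlapping peaks lies to their right, with medians of 187.57, 189.8 and 344.24.

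The adjacent sites were denser the closer they lay to a MEF peak. The gap had a median of 2078 bp and ran from 12 to 4986 bp. It was under 1 kb at 182 sites, and the following kilobases held 134, 132, 119 and 100 sites. Beyond the limit, the next 5 kilobases held 87, 86, 93, 60 and 56 G1297-only peaks, and 36 lay between 19 and 20 kb, so that the numbers fell further but not evenly. The adjacent site lay at the lower coordinate at 326 and at the higher coordinate at 341 of the 667 sites. Its score did not change steadily with the gap, with medians of 185.125, 178.79, 192.65, 173.56 and 246.055 in the 5 kilobases from the MEF peak outwards.

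The peaks with the smallest and largest gaps and those just outside the limit are single examples. The smallest gap, 12 bp, was found at chr2:29101740-29102433, where a G1297 peak with a score of 182.61 followed a shared site with scores of 634.56 in G1297 and 664.56 in the MEFs. The next gaps were 31 bp at chr4:150992644-150993277, with a score of 93.53, and 40 bp at chr16:95596949-95597686, with a score of 142.9. All 3 bordered a shared site, and at all 3 the G1297 peak at the shared site was higher than the adjacent one. The widest gaps were 4986 bp at chr9:113665763-113666368, 4984 bp at chr11:119246028-119246743 and 4977 bp at chr16:86514706-86515288, with scores of 142.83, 162.18 and 100.89. The peaks just outside, at chr19:47526765-47527742, chr5:28011447-28012420 and chr6:37171451-37172216, lay 5001, 5024 and 5033 bp from a MEF peak and had scores of 389.67, 225.45 and 261.82. Their higher scores did not hold more widely. Over all G1297-only peaks, the median score was 246.055 at gaps of 4 to 5 kb and 210.02 at gaps of 5 to 6 kb. A gap under 300 bp was found at 58 sites (8.70%). These had a median score of 175.105, against 189.07 at the other 609, and 75.9% of them bordered a shared site, against 55.3%. Whether such close pairs are a single broad region that the peak caller divided was not tested.

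**Figure D3:**
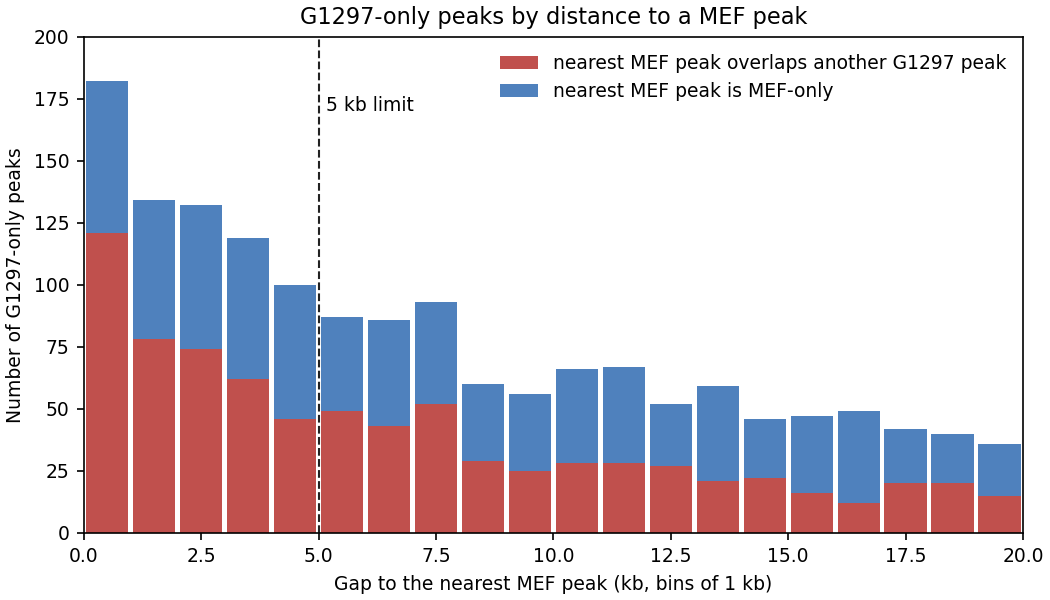
Number of G1297-only peaks by the gap to their nearest MEF peak, in bins of 1 kb up to 20 kb, with bars divided by whether that MEF peak overlaps another G1297 peak (shared) or not (MEF-only). The bars fall from 182 in the first bin to 100 in the last bin within the 5 kb limit (dashed line) and to 36 at the right end, and the shared part falls from 66.5% to 46.0% within the limit.

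The nearest MEF peak of an adjacent site was more often a shared site than MEF peaks in general were. Of all MEF peaks, 18.5% overlapped a G1297 peak. Among the nearest MEF peaks of the adjacent sites, the share was 57.1% (381 of 667, exact 95% binomial interval 53.3% to 60.9%), and among those of the remote sites it was 38.5% (901 of 2339). The adjacent sites were thus divided into 381 that lay beside a site called in both cell types and 286 (42.9%) whose nearest MEF peak overlapped no G1297 peak. The share of the first class fell with the gap, from 66.5% within the first kilobase to 58.2%, 56.1%, 52.1% and 46.0% in the following ones. Beyond 5 kb it lay between 44.6% and 56.3% up to 10 kb. It was higher for adjacent than for remote sites on 19 of 19 autosomes, with a range from 41.9% on chromosome 3 to 67.9% on chromosome 12.

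Counted from the MEF side, a G1297-only peak lay within 5 kb of 422 of 5028 shared MEF peaks (8.39%) and of 338 of 22102 MEF-only peaks (1.53%). Among the shared MEF peaks, this share was 9.54% and 11.9% in the lowest and the next of 10 equal groups by MEF score. In the highest it was 4.37%, so that the strongest shared MEF peaks least often had a G1297-only peak beside them. Strong shared MEF peaks were also wider. In 3 equal groups by MEF score, where neither a G1297-only nor a MEF-only peak lay beside them, the median width rose from 841 to 1607 bp. A wide MEF peak more readily overlaps a nearby G1297 peak, and the part of width was not tested. The 667 adjacent sites had 618 different MEF peaks as nearest neighbours, of which 574 had 1 adjacent site, 39 had 2 and 5 had 3.

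A locus with 3 adjacent sites around a single shared peak was found at chr10:18425120-18426444, where the shared peak had a score of 3100 in both lists. The adjacent sites lay at gaps of 3337, 1794 and 4244 bp, on both sides, and had G1297 scores of 472.81, 491.53 and 388.83. All 3 were far below the shared peak. Around the shared peak at chr2:29100745-29101727, with 634.56 in G1297 and 664.56 in the MEFs, the adjacent scores were 103.99, 182.61 and 109.48. Next to the shared peak at chr15:84129071-84130204, with 506.3 in G1297 and 579.27 in the MEFs, they were 121.83, 206.9 and 280.8, in order of increasing distance on a single side. Adjacent sites also formed runs of their own. When sites within 5 kb of each other were joined, the 667 sites formed 625 groups, of which 587 were single sites, 34 pairs and 4 groups of 3. Among the groups of 3, the highest summed score was found at chr6:31059110-31064226, where the scores were 143.45, 562.86 and 839.35, and rose with the distance from a shared site with a MEF score of 209.36. At chr5:144270316-144273683, the scores were 246.4, 706.99 and 233.74, between 2 shared MEF peaks with scores of 153.06 and 95.8.

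The G1297 signal at the adjacent sites was usually lower than that at the shared site beside them. Over the 381 adjacent sites with a shared neighbour, the G1297 peak at the shared site had a median score of 648.18 and a median percentile of 75.3, whereas the adjacent site had a median score of 198.82 and a median percentile of 39.2. Both values are G1297 scores, so that they come from the same list. The shared site exceeded the adjacent site by a median of 2.64 times, with quartiles of 1.07 and 6.19. At 231 of the 381 (60.6%) the adjacent score was under 0.5 of that at the shared site. The opposite order was found at 85 sites (22.3%, exact 95% binomial interval 18.2% to 26.8%), and at 33 sites (8.66%) the adjacent score was at least 2 times that of the shared site. Over these pairs, Spearman's rho between the scores was 0.17 (n = 381 pairs, which share a peak list and a genomic interval).

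The loci with the opposite order had weaker shared sites and stronger adjacent sites than the others, as the division itself requires. Scores spread more widely at the shared sites (quartiles 260.52 and 1375.04) than at the adjacent sites (124.65 and 391.39), which favours a larger contrast at the shared sites. Where the adjacent site was higher, the shared site had a median G1297 score of 170.86 and the adjacent site one of 367.65. In the other 296 pairs, the medians were 900.72 and 174.49. In the MEFs, the shared site had a median percentile of 52.1 where the adjacent site was higher and of 71.5 in the other pairs. The division of the pairs uses the G1297 scores, so that the G1297 values only describe it. The MEF percentiles were not used for it, but they belong to the same shared sites and are no independent support.

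**Figure D4:**
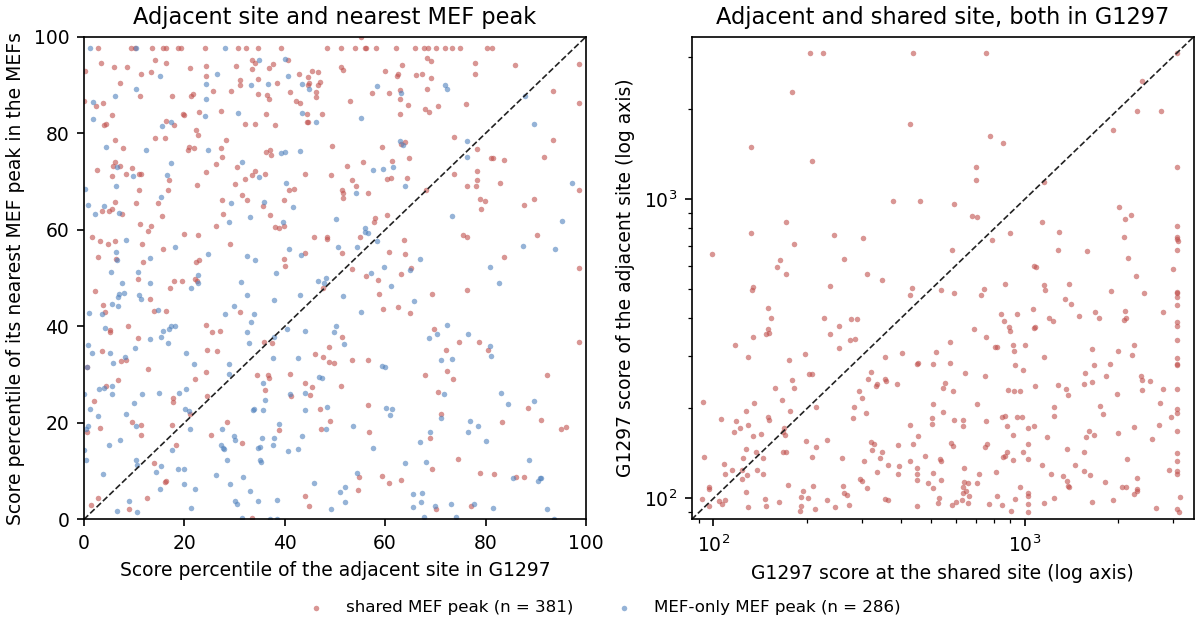
Left, score percentile of each adjacent site among G1297 peaks (horizontal axis) and of its nearest MEF peak among MEF peaks (vertical axis), coloured by whether the MEF peak is shared (n = 381) or MEF-only (n = 286). Right, G1297 scores of the shared site (horizontal axis) and of the adjacent site (vertical axis) on log axes, for the 381 pairs. Dashed lines mark equal values, above which lie 427 of 667 points on the left and 85 of 381 on the right.

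The rank of an adjacent site showed no linear relation to that of the MEF peak beside it. Pearson's r between the percentiles was -0.00394 over 667 pairs, which share a genomic interval but come from different cell types. The MEF peak had the higher percentile in 427 pairs (64.0%), and the MEF percentile minus the adjacent percentile had a median of 15.3 points, with quartiles of -13.0 and 41.8. With the G1297 list limited to scores of at least 200, this median was -8.47 points, so that its sign depends on whether weak sites are counted. Percentiles were kept from the full lists. The limit thus removes only low-ranking adjacent sites, which lowers the median by itself. With the MEF list reduced by score to the length of the G1297 list, the median was 42.3 points. This reduction removes the low-ranking MEF peaks, which raises the median by itself. Neither shift is a result about the pairs. Both peaks ranked in the highest 25% of their list in 16 pairs, and both in the lowest 25% in 46. In 60 pairs a G1297 peak of the lowest 25% lay beside a MEF peak of the highest 25%, and 45 of these MEF peaks were shared. In 25 pairs the ranks were the other way round, and 10 of these MEF peaks were shared. Of the 667 adjacent sites, 233 ranked in the lowest 25% of the G1297 list and 75 in its highest 25%. The counts of 60 and 25 pairs reflect these unequal numbers and are not a result about the pairing.

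The adjacent sites with the strongest MEF neighbours covered a wide range. A MEF neighbour with a score of 3100 or above was found at 33 adjacent sites, whose own scores ran from 91.86 to 871.94 with a median of 257.63. Of these, 1 MEF neighbour scored above 3100, and among the ties at 3100 the sites with the widest MEF peaks are given. At chr18:58633191-58633905 the adjacent score was 311.77, and the MEF peak 43 bp away had 3192.37, with 2002.45 at its G1297 peak. At chr16:87713355-87714330, the adjacent score was 516.65 and the MEF peak had 3100, with 1154.92 in G1297. At chr13:31147768-31148594, the adjacent score was 444.67, and the shared site had 3100 in both lists. In these 3 loci a strong G1297 peak at the shared site was thus accompanied by a weaker one outside the MEF peak.

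The sites beside a MEF-only peak had weaker MEF neighbours than those beside a shared site. The median MEF score was 222.61 for the 286 MEF-only neighbours and 579.27 for the 381 shared neighbours, at percentiles of 37.5 and 68.3. Over all MEF peaks the median score was 314.775. It was 272.44 over all MEF-only peaks and 753.87 over all MEF peaks that overlapped a G1297 peak. The contrast was thus also found between the classes as a whole, and both groups of neighbours lay below the median of their class. The adjacent sites themselves were closer to each other, with median scores of 177.545 and 198.82. The gap was wider beside a MEF-only peak, with a median of 2433 bp against 1855 bp. In these 286 pairs the ranks in the 2 lists were near balance, and the MEF peak had the higher percentile in 154 (53.8%), with a median difference of 3.11 points, compared with 273 of 381 (71.7%) beside shared sites. Another G1297 peak lay within 5 kb of only 58 of the 286 (20.3%). The other 228 thus consisted of a lone G1297 peak with a MEF peak a median of 2607.5 bp away, with median scores of 173.39 in G1297 and 226.165 in the MEFs.

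Another G1297 peak lay within 5 kb of 434 adjacent sites (65.1%), of 15.9% of the remote sites and of 25.8% of all G1297 peaks. Much of this follows from the shared neighbours, which hold a G1297 peak by definition, and the nearest G1297 peak was one that overlapped a MEF peak at 363 of the 434, another adjacent site at 58 and a remote site at 13. Beside MEF-only peaks, where the definition adds no G1297 peak, the share of 20.3% lay between that of the remote sites and that of all G1297 peaks. There the definition also bars a G1297 peak from the nearest MEF peak, which can lower the share and does not apply to all G1297 peaks. On the MEF side, 527 adjacent sites had a single MEF peak within 5 kb, and 71 (10.6%) had MEF peaks on both sides, against 4.57% of all G1297 peaks, for which no MEF peak nearby was required. Around the nearest MEF peaks themselves, another MEF peak lay within 5 kb of 183 of the 618 (29.6%), against 38.3% of all MEF peaks. The rule sets an interval without a MEF peak beside each of the 618, which can lower this share. How much of the difference this makes was not tested.

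The shared sites beside which a G1297-only peak was called ranked higher in G1297 than other shared sites. Each of the 5028 MEF peaks that overlapped a G1297 peak was given its G1297 percentile minus its MEF percentile, and the shared sites were divided by the peaks called within 5 kb of them in a single list. With a G1297-only peak beside them and no MEF-only peak, 338 shared sites had a median difference of 6.08 points (quartiles -11.0 and 27.1). With neither, 3353 shared sites had a median of -7.96 points (quartiles -32.4 and 11.8). With a MEF-only peak and no G1297-only peak, 1253 shared sites had a median of -18.9 points (quartiles -41.7 and -1.04). With both, 84 sites had a median of -3.55 points. The G1297 percentile was the higher one at 61.5%, 39.2%, 23.9% and 42.9% of these sites, respectively. The quartiles of the groups overlapped widely, and the medians of the first and the second group differed by 14.0 points.

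The difference lay in the G1297 score more than in the MEF score. Shared sites with only a G1297-only peak beside them had median scores of 700.435 in G1297 and 545.63 in the MEFs, and those with neither had 333.39 and 655.26. Because a high MEF percentile leaves little room for a higher G1297 one, the comparison was repeated within 3 equal groups of the shared sites by MEF score. The medians were 30.5 points with a G1297-only peak and 13.6 points with neither in the lowest group, 1.83 and -17.6 points in the middle group, and -6.34 and -21.6 points in the highest. Without this division by MEF score, the median was higher with a G1297-only peak beside the shared site than with neither on 19 of 19 autosomes. It was lower with a MEF-only peak on 19 of 19. The comparison with a MEF-only peak was not repeated within groups of MEF score. Those sites had a median MEF score of 1305.01, against 655.26 with neither, which leaves less room for a higher G1297 percentile. The autosomes are parts of the same lists and not replicates. The medians per autosome with a G1297-only peak ran from -3.37 points on chromosome 17 to 32.3 points on chromosome 3. In G1297, a shared site and the peaks around it come from the same list and the same stretch of the genome.

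**Figure D5:**
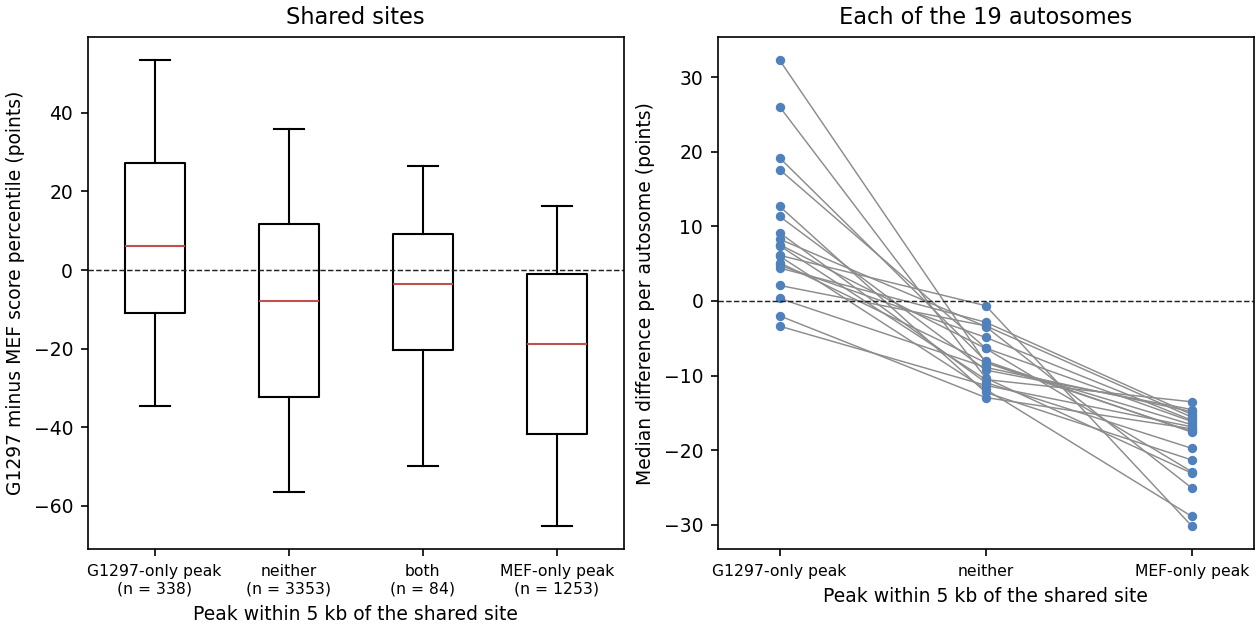
Left, G1297 minus MEF score percentile of the shared sites, divided by the peaks found in a single list within 5 kb of them, with the median (red line), quartiles (box) and 10th and 90th percentiles (whiskers). Right, the median of the same difference on each of 19 autosomes, with lines joining the values of an autosome. The medians are 6.08 points with a G1297-only peak beside the shared site, -7.96 with neither, -3.55 with both and -18.9 with a MEF-only peak.

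The mirror class, MEF-only peaks within 5 kb of a G1297 peak, held 1693 of 22102 MEF-only peaks (7.66%). The nearest G1297 peak was a shared one for 1396 of them (82.5%), where 62.8% of all G1297 peaks overlapped a MEF peak. For the adjacent sites in the other direction the share was 57.1%, where 18.5% of all MEF peaks overlapped a G1297 peak. Each share lay above that of its whole list. Because the whole lists differ in this share and in their numbers of peaks, the order of 82.5% and 57.1% is not a result. The median MEF score of these 1693 MEF-only peaks was 262.67, against 272.92 for the remaining MEF-only peaks. In neither list did the peaks beside a site of the other list thus stand above the remote ones in score.

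The adjacent sites were spread over all autosomes and the X chromosome. Their number ran from 17 on chromosome 14 to 72 on chromosome 6, with 1 on the X chromosome. As a share of the G1297 peaks of a chromosome, they ranged from 6.37% on chromosome 1 to 11.4% on chromosome 6 among the autosomes, with a median of 8.12%. As a share of the G1297-only peaks, they ranged from 18.0% on chromosome 16 to 33.3% on chromosome 19, where 25 of 75 were adjacent sites. On the X chromosome it was 1 of 11 (9.09%). The median score of the adjacent sites was below that of the remote sites on 10 of 19 autosomes, so that the order of these medians had no steady direction. Another G1297 peak lay within 5 kb more often for adjacent than for remote sites on 19 of 19 autosomes, at 44.0% to 85.7% against 5.94% to 23.3%. Much of this follows from the definition. A shared neighbour holds a G1297 peak, which lay within 5 kb of 376 of 381 such adjacent sites, whereas remote sites had no MEF peak within 5 kb. The percentile of the MEF peak exceeded that of the adjacent site by a median above 0 on 19 of 19 autosomes, from 0.831 points on chromosome 18 to 33.0 points on chromosome 9. This direction depends on counting the weak sites. With G1297 scores of at least 200, the median over all chromosomes was -8.47 points, a shift that removing low-ranking adjacent sites brings by itself.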

How the data were processed

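ChIP-Seq peaks of EWS/ATF1 in G1297 and sarcoma-iPSC MEFs were analysed, as 1 deposited list per cell type. The authors aligned reads with Bowtie2 2.2.0 to mm9 and called peaks with MACS 1.4.2 at a P value of 1e-09, per the labels, which also name FastQC and cutadapt. The deposited values are positions and a score for each peak (-10 times the log10 of its P value). Neither the input used nor the pooling of the G1297 libraries is given in the sources used here. Names of 42 peaks on random contigs are those of mm9. The reference at hand was another build, and coordinates were not converted. Libraries with KRAB fusions were not analysed here.

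Overlap required at least 1 bp. Ties in percentiles were placed at the middle of their ranks. Python 3.11.15 with numpy 2.4.6 and pandas 2.3.3 was used for the counts, with exact binomial intervals from scipy 1.17.1 and figures from matplotlib 3.10.9. The counts of G1297-only peaks and of adjacent sites were checked against bedtools 2.31.1, and the steps were tested on simulated lists. The rule for named peaks took the 10 highest-scoring adjacent sites, the 3 smallest and 3 largest gaps, the 3 peaks just outside, the 3 with the highest MEF neighbours, the 3 MEF peaks with most adjacent sites and the 3 runs with most adjacent sites. Ties went by width, by score for MEF peaks and by summed score for runs. The sites, lists and rules were chosen with earlier results of these data known. Depth is unknown, and no test was possible without values per replicate.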

Additional observations from a re-analysis of the deposited data

How the results depend on the processing

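The alternatives tried were other gap limits, a MEF list reduced by score to the length of the G1297 list (the limited list), a G1297 score of at least 200, distances between centres, X and Y left out, and runs of sites counted once per chromosome. Leaving out gaps under 300 bp and all settings for the rank difference of shared sites were chosen after seeing the data. Of 60 values under an alternative, 38 lay within 1.5 times the reported count or within the 95% interval of the reported share or median, 21 lay outside and 1 changed sign. The intervals are wide for single chromosomes, where the lowest share of adjacent sites was 9.09% and, with X and Y left out, 18.0%, and the highest was 33.3% and, at 10 kb, 43.75%. The number of adjacent sites was 182, 316 and 1049 at limits of 1, 2 and 10 kb and 312 with the score minimum. The share with a shared neighbour was 66.5% at 1 kb, 63.0% at 2 kb, 75.6% with the limited MEF list and 52.2% with the score minimum. The median percentile difference between MEF and adjacent peaks was 25.3 points at 1 kb, 22.0 at 2 kb, 42.3 with the limited list and -8.47 with the score minimum. Percentiles were kept from the full lists. The limited list removes the low-ranking MEF peaks and the score minimum the low-ranking adjacent sites, which shifts this median by itself. The share with another G1297 peak in the limit was 68.7% at 10 kb, 76.4% with the limited list and 61.2% with the score minimum. The share with MEF peaks on both sides was 2.75% at 1 kb, 7.28% at 2 kb, 17.4% at 10 kb and 4.03% with the limited list. The median score was 227.44 with the limited list and 380.865 with the score minimum. The difference of 14.0 points between shared sites with a G1297-only peak and with neither was 11.1 with the score minimum and 11.6 to 16.5 otherwise. No paired analysis was possible because only 1 list per cell type was at hand, without values per replicate, so no library could be left out. Motif and gene counts were not run, because the reference was another build.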
